A study of Mus musculus with 3 samples.

Results

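Osteopontin, the secreted phosphoprotein encoded by Spp1, and CD44, a cell surface receptor encoded by Cd44, were followed through a single-cell RNA data set of mouse esophageal cells. Both genes were found in the deposited matrix, 2 of 32287 features, and were read over the 14925 of 18116 cell barcodes with at least 500 genes, at least 1000 UMIs (unique molecules counted) and at most 20% mitochondrial UMIs. The pair was selected on its UMI levels and spread in these same cells, so the values below describe it and carry no test. Kept cells held 39419 Spp1 UMIs and 16989 Cd44 UMIs out of 45443280.

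The cells were PC cells, derived from esophageal organoids of Trp53 floxed/floxed mice. Ad-Cre-EGFP had removed Trp53, CRISPR/Cas9 had then knocked out Cdkn2a, and the organoid cells had been dissociated and grown in DMEM with 10% FBS and Y-27632, which was later withdrawn. Counts from the 3' ends of transcripts cannot check either knockout, as the labels do not give the altered parts of the genes. The sequenced cells expressed Cas9 constitutively, had received a library of genetic barcodes by transfection, and were grown for 3 passages before live RFP-positive cells were sorted, about 1000000 of them with about 20000 recovered. The labels name 3 libraries from this culture (gene expression, barcodes and scars, each with 1 replicate) and give the tissue as esophageal cancer. There was no untreated or wild-type group, and 1 matrix without replicates was used, so no difference here was measured against the spread between cultures.

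Osteopontin is a matricellular protein that is made in bone and is also secreted by fibroblasts, macrophages and many tumour cells. It binds integrins through an RGD motif and has been described as a ligand of CD44. CD44 is the main receptor for hyaluronan, is linked to the actin cytoskeleton through ezrin, radixin and moesin, exists as a standard form and as splice variants, and is often used as a marker of precursor cells in squamous epithelium. In the GENCODE M21 annotation of GRCm38, Spp1 (ENSMUSG00000029304) lies on chromosome 5 from 104435118 to 104441050 on the plus strand with 7 transcripts, and Cd44 (ENSMUSG00000005087) lies on chromosome 2 from 102811141 to 102901665 on the minus strand with 9 transcripts. Counts made from the 3' ends of transcripts do not separate the CD44 splice forms. Each gene overlaps 1 other annotated gene, Gm42793 for Spp1 and Gm23731 for Cd44, and neither of these is a feature of the matrix.

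Cells were placed by 6 epithelial markers (Epcam, Cdh1, Krt5, Krt14, Krt15 and Dsp) and 9 mesenchymal markers (Vim, Col1a1, Col1a2, Col5a1, Col5a2, Aebp1, Zeb1, Zeb2 and Ccn5), none of which is Spp1 or Cd44. Of a cell's marker UMIs, a mesenchymal share of at least 0.8 put it in the mesenchymal gate, a share of at most 0.2 in the epithelial gate and a share in between in the mixed gate. Cells with fewer than 5 marker UMIs were called low-marker cells. This gave 11127 epithelial-gate cells with a median of 3076 UMIs, 1150 mesenchymal-gate cells with a median of 3367.5, 338 mixed cells with a median of 4125 and 2310 low-marker cells with a median of 1603. Of the 12615 cells with enough marker UMIs, 309 lay within 0.05 of a limit. Genes that were not used for the gates followed them in part. Of 6 further mesenchymal genes, 5 were called higher in the mesenchymal gate, and the other, Twist1, was under 10 CPM in both gates. Of 6 further epithelial genes, 5 were called lower there, and the other, Ovol1, was under 10 CPM in both. Mixed cells had a median doublet score of 0.133, against 0.0778 in the epithelial and 0.0231 in the mesenchymal gate. Doublets were not removed, and their part in the mixed gate was not tested.

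Spp1 was much higher in the mesenchymal gate than in the epithelial gate, and Cd44 was higher there by less than 2-fold. Spp1 stood at 225 UMIs per 1000000 (CPM; exact 95% Poisson interval 220.0 to 230) in the epithelial gate and at 4530.5 CPM (4465 to 4597) in the mesenchymal gate, a ratio of 20.1 (19.6 to 20.7). Cd44 stood at 349 CPM (343 to 355) and 503 CPM (482 to 526), a ratio of 1.44 (1.38 to 1.51). A call between sets of cells required that a gene's ratio reach 2, its higher level 10 CPM and its 95% intervals not overlap, so Spp1 was called and Cd44 was not. By that rule 23% of 9117 tested genes were called between these gates, 11.6% higher and 11.4% lower in the mesenchymal gate. A higher ratio than that of Spp1 was found for 167 of the tested genes (1.83%), and a higher ratio than that of Cd44 for 2078 (22.8%). These intervals, and all others here, cover counting error only.

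The remaining cells fell in between for Spp1. Mixed cells had 3143 CPM (3051 to 3237) and low-marker cells 1987 CPM (1946 to 2029), so the order of Spp1 levels was mesenchymal, mixed, low-marker and epithelial, with no interval touching the next. Cd44 followed in the order mesenchymal, mixed at 449.7 CPM (415 to 486), low-marker at 432 CPM (413 to 452) and epithelial. The Cd44 intervals of mesenchymal and mixed cells overlapped, as did those of mixed and low-marker cells. Mesenchymal-gate cells were 7.71% of kept cells and held 46.1% of all Spp1 UMIs and 11.9% of all Cd44 UMIs. Epithelial-gate cells were 74.6% of kept cells and held 20.3% of the Spp1 UMIs and 73.1% of the Cd44 UMIs.

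**Figure D1:**
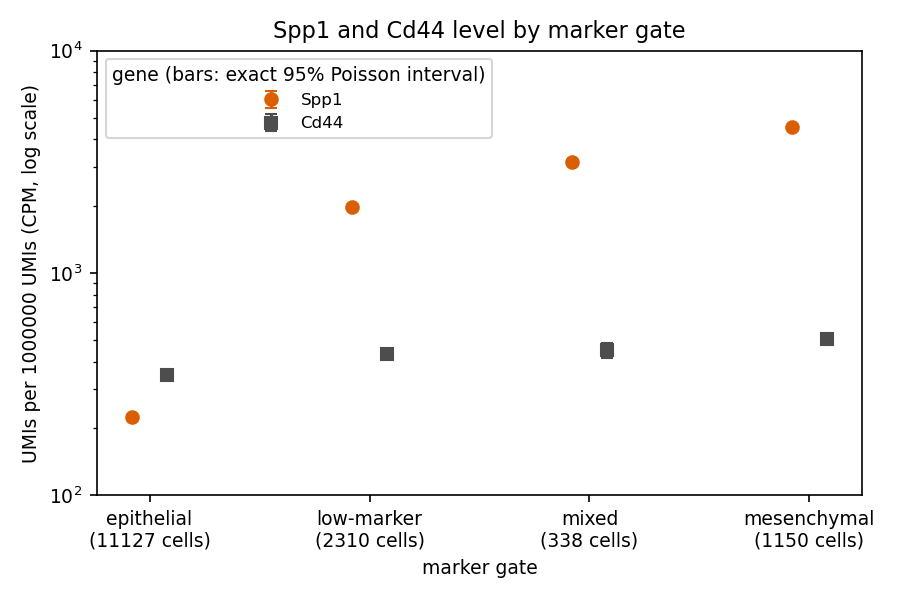
Level of Spp1 (circles) and Cd44 (squares) in the 4 marker gates, in UMIs per 1000000 on a log axis, with exact 95% Poisson intervals that are mostly narrower than the symbols. Spp1 runs from 225 CPM in the epithelial gate to 4530.5 CPM in the mesenchymal gate, while Cd44 stays between 349 and 503 CPM.

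The low-marker cells were not uniform. The 410 with more mesenchymal than epithelial marker UMIs held 18.2% of all Spp1 UMIs at 6490 CPM (6341 to 6642), above the level of the mesenchymal gate itself. The 1520 with more epithelial marker UMIs stood at 290.1 CPM (270.4 to 311), the 66 with equal numbers of both at 3987 CPM (3682 to 4311), and the 314 with no marker UMI, whose median mitochondrial share was 10.3%, at 444.5 CPM (382 to 515). For Cd44 these cells gave 429 CPM (391 to 469) with mesenchymal, 407 CPM (384 to 432) with epithelial, 551 CPM (441 to 679) with equal and 569 CPM (497 to 647) with no marker UMIs. The cell with the most Spp1 at equal depth was a low-marker cell with 408 Spp1 UMIs of 4925, or 8.28%, and 3 mesenchymal and 0 epithelial marker UMIs. The highest Cd44 count at equal depth, 12 thinned UMIs, was also in a low-marker cell, and the highest count before thinning was 20 Cd44 UMIs of 3754 in an epithelial-gate cell.

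Ligand and receptor also differed in how their UMIs were spread over cells. To compare cells at 1 depth, each was thinned at random to 1500 UMIs, which left out 1644 shallower cells and kept 13281. An Spp1 UMI was then found in 26.0% of cells (exact 95% binomial interval 25.3% to 26.8%) and a Cd44 UMI in 40.8% (39.95% to 41.6%). Without thinning these shares were 31.8% and 61.1%. The 5% of cells with the most Spp1 held 63.3% of its thinned UMIs, and the 5% with the most Cd44 held 24.5%. Because shares depend on the mean, Spp1 was also thinned to the Cd44 mean of 0.557 UMIs per cell. Spp1 would then have been found in 18.0% of cells, against 40.8% measured for Cd44 and 42.7% for a gene spread evenly with that mean.

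The variance of thinned counts divided by their mean, expected at 1 from sampling of molecules only, was 16.1 for Spp1 and 1.16 for Cd44 over all thinned cells, where the median of 2622 genes was 1.05. Spp1 ranked 4 and Cd44 464 among these genes. The gates accounted for 21.0% of the Spp1 variance and 0.886% of the Cd44 variance. Spp1 was also uneven within gates, with a ratio of 4.07 in the epithelial gate, 11.1 in the mesenchymal gate, 12.02 in mixed cells and 22.2 in low-marker cells. For Cd44 the 4 gates gave 1.11, 1.21, 0.980 and 1.43 in the same order.

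In the mesenchymal gate 89.4% of thinned cells (87.4% to 91.1%) had an Spp1 UMI. Their median count was 4, the 95th percentile 24 and the highest 104. In the epithelial gate 15.99% (15.3% to 16.7%) had an Spp1 UMI, the 95th percentile was 2 and the highest count 41. At least 10 Spp1 UMIs were found in 272 of 1146 mesenchymal-gate cells (23.7%) and in 23 of 10493 epithelial-gate cells (0.219%). The 2 distributions overlapped, since 122 mesenchymal-gate cells had no thinned Spp1 UMI. Cd44 was found in 50.5% of mesenchymal-gate cells (47.6% to 53.5%) and 39.2% of epithelial-gate cells (38.3% to 40.2%), and no cell of either gate had more than 6 thinned Cd44 UMIs.

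**Figure D2:**
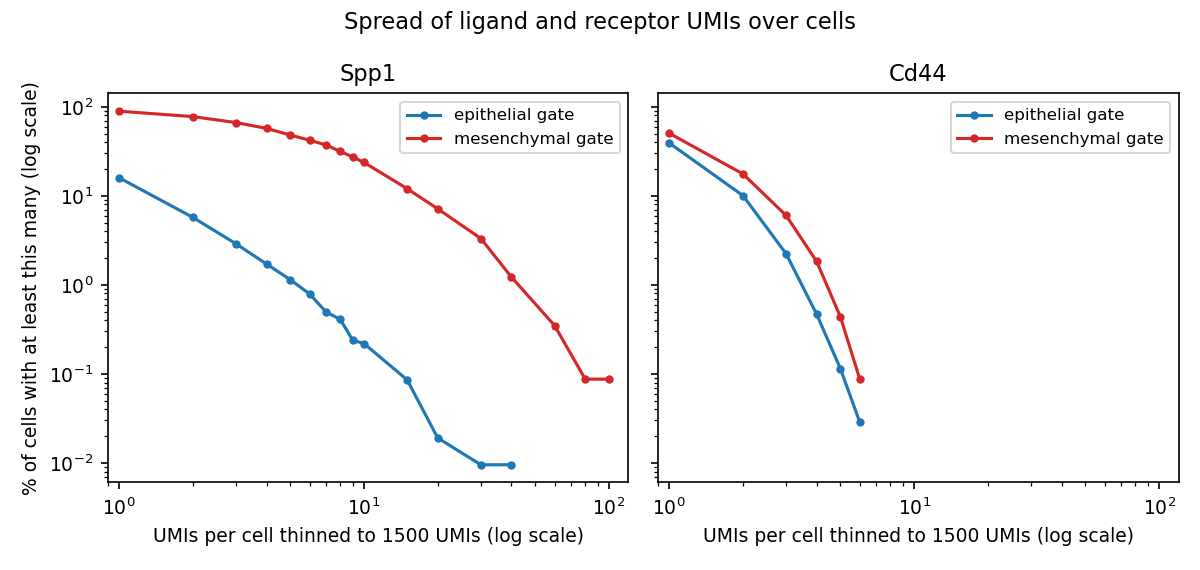
Share of cells (%, log axis) with at least the number of UMIs given on the horizontal log axis, after thinning to 1500 UMIs per cell, for Spp1 and for Cd44 in 10493 epithelial-gate and 1146 mesenchymal-gate cells. The Spp1 curves of the gates lie far apart and are drawn to 40 UMIs (epithelial) and 100 UMIs (mesenchymal). The Cd44 curves lie close together and end at 6.

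Free RNA in the droplets can give a UMI to a cell that does not express a gene, and no cells in the culture are known to lack Spp1. Its epithelial-gate level was 4.96% of its mesenchymal-gate level (4.83% to 5.10%). The further mesenchymal genes, measured in the same way, gave 0.154% for Grem1, a BMP antagonist, 0.291% for the collagen gene Col3a1, 0.884% for decorin Dcn and 2.64% for the transcription factor gene Snai1. Sparc, a matricellular protein gene, was above Spp1 with 9.02%. Twist1, another transcription factor gene, gave 132% (57.5% to 371%) from 6 UMIs in the mesenchymal and 70 in the epithelial gate. A Grem1 UMI was found in 37.6% of mesenchymal-gate and 0.0953% of epithelial-gate cells at the thinned depth, and a Sparc UMI in 86.1% and 17.5%. In the other direction, 4 of the 6 further epithelial genes had 1.37% to 2.54% of their epithelial level in the mesenchymal gate, Cldn7 had 0.643% and Ovol1, from 2 UMIs, 21.1% (2.52% to 78.7%). The part of free RNA in the epithelial-gate Spp1 UMIs was not tested, and the 15.99% says nothing of how many cells transcribe Spp1.

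Within each gate, the share of cells with both ligand and receptor was near the product of their separate shares. In the epithelial gate 668 of 10493 cells (6.37%; 5.91% to 6.85%) had UMIs of both genes, against 6.28% if the genes were found independently, a ratio of 1.01 (0.941 to 1.09). The limits given with this and the other co-detection ratios are those of the observed share, divided by the expected share. The expected share was taken as fixed, although it comes from the same cells. In the mesenchymal gate 508 of 1146 cells (44.3%; 41.4% to 47.3%) had both, against 45.1%, a ratio of 0.982 (0.918 to 1.05). The ratios were 1.02 (0.886 to 1.15) in mixed and 0.989 (0.867 to 1.12) in low-marker cells. Over all thinned cells the ratio was 1.08 (1.03 to 1.13), with both genes in 1517 cells, and this pooled value mixes gates that differ in both genes. At the thinned depth, a cell with an Spp1 UMI thus had a Cd44 UMI in 39.8% of cases in the epithelial gate. A cell without a thinned Spp1 UMI had one in 39.1%. In the mesenchymal gate these shares were 49.6% and 58.2%. Spp1 was found in 89.4% of cells there. The ratio of 0.982 could therefore not lie far from 1, and it says little of whether the genes go together.

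The level of Cd44 by the amount of Spp1 was ordered differently in the 2 gates. In the epithelial gate Cd44 stood at 346 CPM (339 to 352) in the 8815 cells without a thinned Spp1 UMI and at 343 CPM (325 to 362) in the 1076 cells with 1. It stood at 385 CPM (357 to 415) with 2 to 4, at 505 CPM (433 to 585) with 5 to 9 and at 574 CPM (416 to 774) with 10 to 19 Spp1 UMIs, the last class having 21 cells. The 2 epithelial-gate cells with 20 or more are too few for a level. In the mesenchymal gate Cd44 was highest, at 601.5 CPM (532 to 678), in the 122 cells without Spp1 and lay between 438 and 528 CPM in the other 5 classes. Spp1 UMIs were left out of the totals behind these levels. Cells with at least 3 thinned Spp1 UMIs in the epithelial gate (304 cells, called Spp1-high below) had 1.27 times the Cd44 level of the cells with none (1.15 to 1.39). In the mesenchymal gate 125 cells with at least 16 had 0.723 times the level of the cells with none (0.594 to 0.878). Neither ratio passed the 2-fold rule, and the difference between the gates was not tested.

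**Figure D3:**
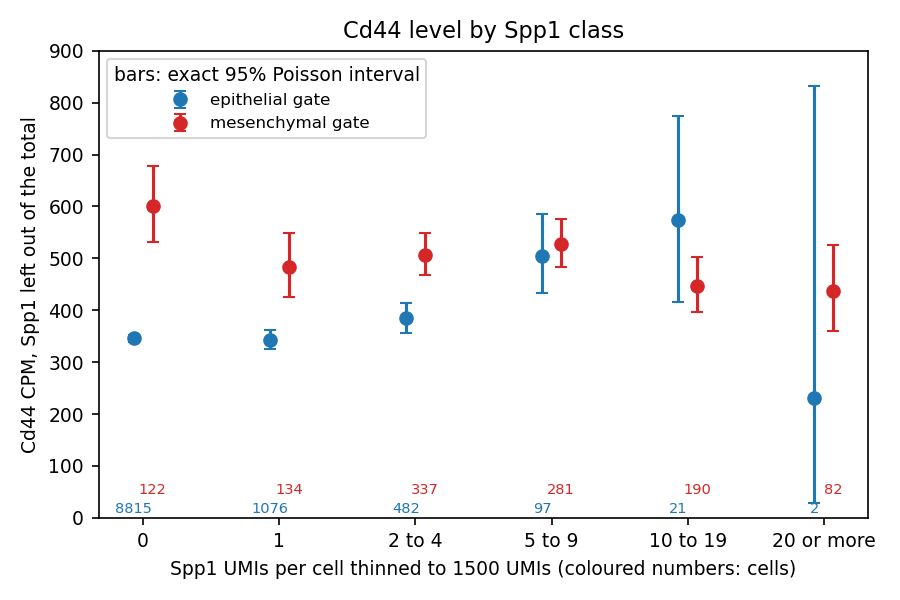
Cd44 level in CPM, with Spp1 left out of the total, in classes of cells by thinned Spp1 UMIs, for the epithelial gate and the mesenchymal gate, with exact 95% Poisson intervals and the number of cells in each class printed in the colour of its gate. In the epithelial gate Cd44 runs from 346 CPM at 0 to 574 CPM at 10 to 19 Spp1 UMIs, and in the mesenchymal gate it is highest at 0, with 601.5 CPM. The epithelial class of 20 or more holds 2 cells.

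Within the epithelial gate, Spp1 differed between cells marked by other programmes and Cd44 differed less. For each of 16 marker lists, cells with at least the 75th percentile of list UMIs, and at least 3, were set against the rest of the gate. These sets overlap, since a cell can be high for several lists. Spp1 ratios ran from 0.261 (0.240 to 0.283) to 3.42 (3.03 to 3.83), and 5 of 16 were past 2-fold in either direction. Cd44 ratios ran from 0.802 to 1.42, and 0 of 16 were past 2-fold. The highest Spp1 ratio was that of the 99 cells high for Ly6c1 and Pate14, with 761 against 223 CPM. It was followed by the 591 cells high for Ltf and Lcn2, the antimicrobial iron-binding proteins lactoferrin and lipocalin-2, with 644 against 204 CPM, a ratio of 3.15 (2.97 to 3.35). Interferon-stimulated genes marked 711 cells with a ratio of 2.11 (1.97 to 2.25), and chemokine genes 2806 cells with 1.84 (1.76 to 1.93), just inside 2-fold.

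The lowest Spp1 ratio was that of 2740 cells high for Wfdc18, which encodes a small secreted WAP-domain protein, with 73.1 against 280.4 CPM. Cells high for Krt7 and the laminin-332 genes, which encode the basement membrane anchor of epithelia, had 114 against 239 CPM, a ratio of 0.476 (0.425 to 0.531). Contractile genes gave 0.601 (0.549 to 0.656), replication genes 0.603 (0.4999 to 0.721) and mitosis genes 0.723 (0.677 to 0.773). The laminin-332 cells were the clearest case of opposite signs, since their Cd44 level was 435 against 341 CPM, a ratio of 1.27 (1.20 to 1.35). The Ltf and Lcn2 cells were high for both genes, with a Cd44 ratio of 1.42 (1.33 to 1.52), and the Wfdc18 cells low for both, with 0.802 (0.767 to 0.838). Median depth was 3056.5 UMIs in the Wfdc18 cells against 3213 in the rest, and 2827 against 3191 for laminin-332. Other sets were deeper than the rest of the gate. Median depth was 3553 against 3153 for Ly6c1 and Pate14, 3672 against 2985 for chemokine genes and 3748.5 against 3083 for mitosis genes.

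In the mesenchymal gate 8 of the lists marked at least 30 cells. Spp1 ratios ran from 0.661 (0.637 to 0.686) in 300 cells high for contractile genes, 3298 against 4989 CPM, to 1.41 (1.33 to 1.48) in 72 cells high for immediate early genes. Chemokine-high and hypoxia-high cells gave 1.24 each, interferon-high cells 0.821 and mitosis-high cells 0.797. Interferon-high cells were thus above the rest for Spp1 in the epithelial gate and below it in the mesenchymal gate, a difference that was not tested. Cd44 ratios ran from 0.934 to 1.25, and none of the 8 lists was past 2-fold for either gene.

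**Figure D4:**
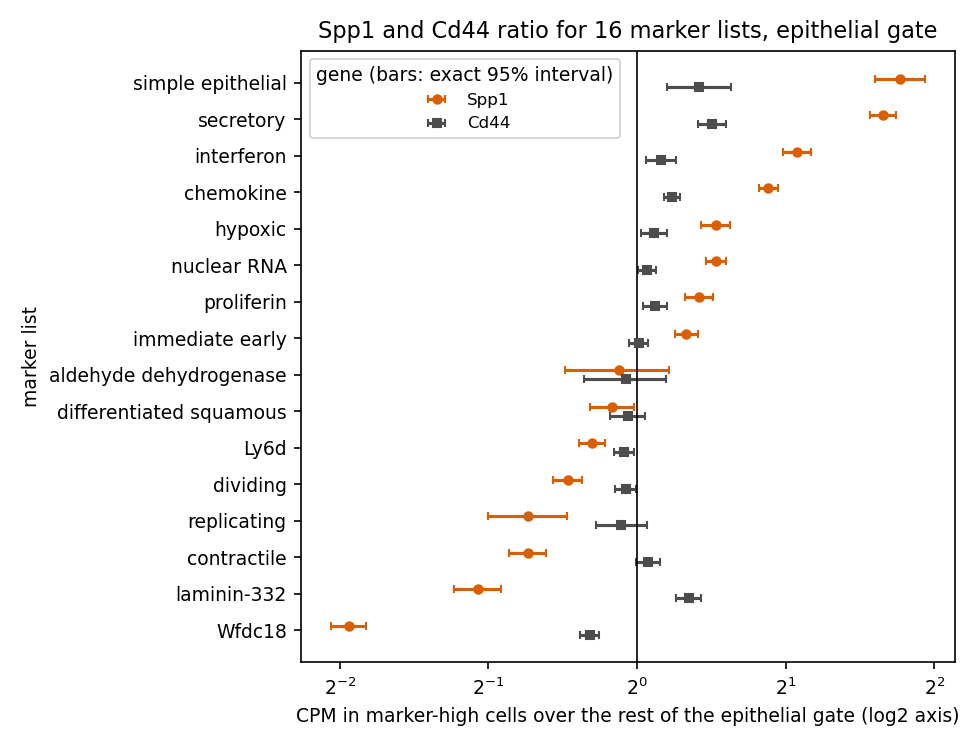
Ratio of CPM in cells high for each of 16 marker lists to CPM in the rest of the epithelial gate, on a log2 axis, for Spp1 (circles) and Cd44 (squares), with exact 95% intervals for counting error. Spp1 ratios span 0.261 to 3.42, and Cd44 ratios stay between 0.802 and 1.42.

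The other known receptors of osteopontin are integrins, heterodimers of an alpha and a beta chain. Of 9 listed chains 6 were tested between the gates, with 3 higher and 1 lower in the mesenchymal gate and a median ratio of 2.26, where all tested genes had a median of 0.994. Itgb3, the beta chain of the vitronectin receptor, stood at 87.9 against 2.19 CPM, a ratio of 40.1 (31.3 to 52.0). Itga5, the alpha chain of the fibronectin receptor, stood at 79.7 against 5.06 CPM, a ratio of 15.8 (13.1 to 19.03), and Itgb5 at 173 against 61.5 CPM. Itgb6, a beta chain of epithelia, went the other way with 6.48 against 167 CPM. The shared chains Itgav and Itgb1 had ratios of 1.71 and 1.51 and were not called. Itga9 and Itga8 were under 10 CPM, with 8 against 2 and 1 against 5 UMIs, and Itga4 had no UMI in either gate. The other SIBLING genes, Ibsp, Dmp1, Dspp and Mepe, which lie near Spp1 and encode related matrix phosphoproteins of bone and teeth, had no UMI in either gate, which allows up to 0.747 CPM in the mesenchymal and 0.0843 CPM in the epithelial gate (3 UMIs).

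Of 9 genes whose proteins modify or cleave osteopontin, 5 were tested, with 1 higher and 1 lower. Cathepsin B (Ctsb) stood at 433 against 147 CPM, a ratio of 2.94 (2.78 to 3.10). Fam20c, the kinase that phosphorylates secreted matrix proteins, stood at 5.23 against 10.96 CPM. Tgm2, Plau and Ctsd were not called. Mmp3 fell just under the rule, at 9.97 against 0.337 CPM, a ratio of 29.6 (15.2 to 61.9; 40 against 12 UMIs). Mmp9, with a ratio of 0.871 (0.486 to 1.46), and Mmp7, with 0 against 10 UMIs, were also under 10 CPM. F2 had no UMI in either gate.

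The genes of the CD44 side went in both directions, where Cd44 itself had a ratio of 1.44. Of 9 hyaluronan genes 4 were tested, with a median ratio of 0.881. Has2, a synthase of hyaluronan, stood at 349 against 22.7 CPM, a ratio of 15.4 (14.1 to 16.8), and Hmmr, a hyaluronan-binding protein of the mitotic spindle, was lower with 14.5 against 34.0 CPM. Of the hyaluronan genes under 10 CPM, Cemip had a ratio of 47.3 (19.5 to 138; 32 against 6 UMIs) and Hyal1 one of 0.595 (0.280 to 1.13). Has3 had 0 against 9 UMIs, Lyve1 had 0 against 1, and Has1 had 1 in each gate. Of 6 linkers to the cytoskeleton, ezrin (Ezr, 66.5 against 135 CPM) and ankyrin-3 (Ank3, 14.7 against 75.4 CPM) were lower, and moesin (Msn), radixin (Rdx), Iqgap1 and Nf2 were not called. Among 8 genes of CD44 shedding and splicing the membrane protease Mmp14 was higher, with 578 against 244 CPM. The epithelial splicing regulators were lower, Esrp1 with 0.997 against 72.6 CPM, from 4 UMIs in the mesenchymal gate, and Esrp2 with a ratio of 0.0243 (0.000613 to 0.136), from 1 UMI. The sheddases Adam10 and Adam17 were not called, with ratios of 1.31 and 1.04. Of 4 tested co-receptor genes, Met (43.8 against 105 CPM) and the cystine transporter gene Slc7a11 (2.49 against 26.8 CPM) were lower, and Egfr and Erbb2 were not called. Of 6 tested genes often reported together with CD44 in precursor cells, Itga6, Itgb4, Klf5, Ly6a and Aldh1a3 were lower in the mesenchymal gate and Sox2 was not called. Their median ratio was 0.218.

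**Figure D5:**
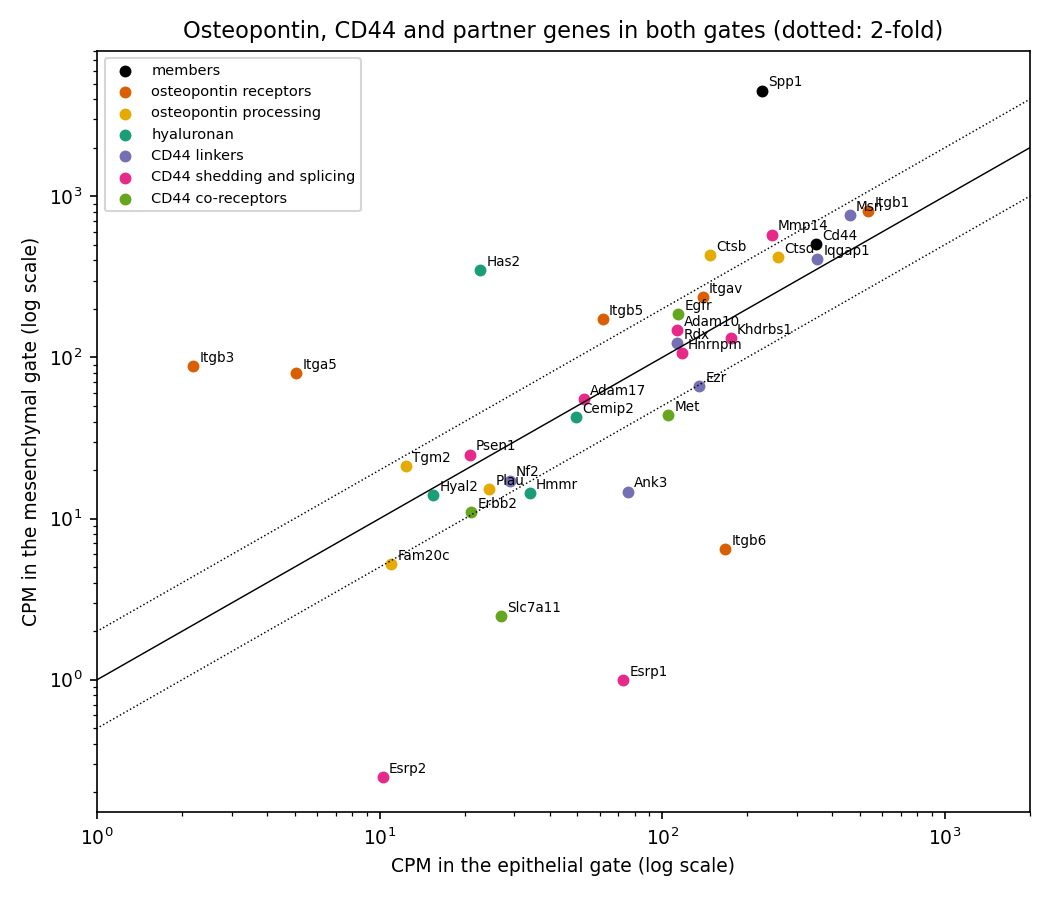
Level in the mesenchymal gate against level in the epithelial gate (CPM, both axes log) for Spp1, Cd44 and the tested genes of 6 partner lists, with equality as a solid line and 2-fold differences as dotted lines. Spp1, Itgb3, Itga5 and Has2 lie far above the lines and Itgb6, Esrp1, Esrp2 and Slc7a11 far below, with Cd44 between the dotted lines.

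Within the epithelial gate, the 304 Spp1-high cells (median 3485 UMIs) were compared with the 8815 without a thinned Spp1 UMI (median 3085). By the same rule 4.65% of 8840 tested genes were called, 243 higher (2.75%) and 168 lower (1.9%) in Spp1-high cells. Of 5 tested osteopontin processing genes, Fam20c was called higher (22.9 against 9.61 CPM, ratio 2.38, 1.51 to 3.59). Of 4 tested co-receptor genes, Slc7a11 was called higher (56.7 against 24.4 CPM, ratio 2.32, 1.76 to 3.01). None was called among 4 tested integrin chains, 4 hyaluronan genes, 6 linkers, 8 shedding and splicing genes and 6 precursor genes. No partner gene was called lower. So few calls cannot be set apart from the 2.75% of all tested genes called higher. The 4 tested integrin chains had a median ratio of 0.941, beside 1.01 over all tested genes. Partner genes under 10 CPM, outside the rule, went both ways. Mmp3 (32.7, 7.04 to 165; 5 against 4 UMIs), Cd74 (10.5, 3.99 to 24.8) and Itgb3 (4.03, 1.65 to 8.53) had ratios above 1. Mmp9 (0, 0 to 0.810), Itga5 (0.174, 0.00439 to 0.987) and Aldh1a1 (0.0935, 0.00236 to 0.525) had ratios below 1. Of the 6 further mesenchymal genes, 4 were at a higher level in Spp1-high cells, each under 10 CPM and so outside the rule for a call. Col3a1 had a ratio of 43.6 (8.49 to 281; 5 against 3 UMIs), Grem1 of 20.9 (7.18 to 58.9; 8 against 10 UMIs), Snai1 of 10.8 (3.78 to 27.3; 7 against 17 UMIs) and Dcn of 13.1 (1.18 to 91.3; 2 against 4 UMIs). Sparc went the other way with 119 against 161 CPM and was not called, and Twist1 had 0 against 59 UMIs, a ratio of 0 (0 to 1.69). Sparc made up most of the summed level of the list, 139 against 164 CPM. The part of mesenchymal transcripts, doublets or free RNA in the calls of this contrast was not tested. Of 3 tested contractile genes, Acta2 was called lower with 109 against 276 CPM. Tpm2 (276 against 449 CPM) and Tagln (22.9 against 20.2 CPM) were not called, and Tagln went the other way.

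The 10 genes with the largest called ratios included several that rest on few cells. Saa3, an acute-phase protein gene, had 121 UMIs in 4 of the 304 cells, and Calca had 21 UMIs in 1 cell, so their ratios of 72.0 and 28.9 describe those cells. Il13ra2, a decoy receptor for interleukin-13, was found in 27 cells at 47.6 against 1.47 CPM. Mmp13 (44.8 against 5.35 CPM, 20 cells) and Mmp12 (38.4 against 5.31 CPM, 18 cells) encode matrix metalloproteinases. Sprr2e (37.5 against 3.60 CPM, 19 cells) and Sprr2h (28.4 against 3.11 CPM, 14 cells) encode small proline-rich proteins of the cornified envelope. Haptoglobin Hp (13 cells), Cdkn1c (8 cells) and the Wnt antagonist gene Dkk2 (8 cells) had ratios of 9.62, 12.1 and 11.99. Il13ra2, Dkk2 and Mmp12 were also higher in the mesenchymal than the epithelial gate (372 against 3.34, 171 against 1.43 and 70.8 against 6.995 CPM), and Hp, Saa3, Sprr2e and Sprr2h were at under 3 CPM in the mesenchymal gate.

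On the lower side Wfdc18 had the most UMIs, with 1141 against 8198 CPM, 7.18-fold lower in Spp1-high cells, and was found in 123 of the 304 cells. Ctnnd2 (9.15 against 107 CPM), the desmosome gene Dsc3 (3.66 against 30.3 CPM) and Ptn, which encodes the growth factor pleiotrophin (7.32 against 38.6 CPM), were also lower, as were Tll1, Bbox1, Tppp and Il1rl1, each at under 5 CPM in Spp1-high cells. The ratios of Prl2c5, from 1 UMI, and Atad5, from 2, were 0.0198 (0.000501 to 0.111) and 0.120 (0.0145 to 0.436).

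The same contrast in the mesenchymal gate set 125 Spp1-high cells (median 3188 UMIs) against 122 cells without a thinned Spp1 UMI (median 3687.5). It gave calls for 1.54% of 8824 tested genes, 83 higher (0.941%) and 53 lower (0.601%). Of 5 tested hyaluronan genes Hmmr was called lower, from 2 against 16 UMIs, a ratio of 0.139 (0.0155 to 0.592). No tested gene of the other partner lists was called, and 1 call cannot be set apart from the share over all tested genes. Of 10 tested mitosis genes Top2a, Ube2c and Birc5 were lower, Ube2c at 17.5 against 150.4 CPM, and the 7 others were not called. All 10 had ratios below 1, with a median of 0.306, beside 1.02 over all tested genes. Of 5 tested further mesenchymal genes, Col3a1 (162 against 33.7 CPM, ratio 4.82, 2.72 to 9.11) and Grem1 (660 against 296 CPM, ratio 2.23, 1.7995 to 2.76) were higher. Sparc (ratio 1.13), Snai1 (1.37) and Dcn were not called. Dcn went the other way, from 2 against 11 UMIs, a ratio of 0.202 (0.0218 to 0.927). Twist1 was under 10 CPM, with 3 against 0 UMIs. Of 5 tested contractile genes Myl9 was lower, with 87.4 against 199.8 CPM. The others were not called, among them Acta2 at 3265 against 5681 CPM. All 5 contractile genes had ratios below 1, with a median of 0.575.

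Over single epithelial-gate cells the genes most like Spp1, by Pearson correlation of log thinned counts among 2579 genes, were the chemokine gene Cxcl5 (0.180), the ferritin gene Fth1 (0.176), the protease inhibitor genes Wfdc2 (0.167) and Slpi (0.163) and the early response gene Ier3 (0.139). The genes least like it were Wfdc18 (-0.192), the basal keratin gene Krt17 (-0.153), Myl6 (-0.128), the hemidesmosome collagen gene Col17a1 (-0.119) and Fxyd3 (-0.112). For Cd44 the correlations were weaker. The highest were those of Lcn2, Pdia3, B2m, Cldn4 and Ptpn13, between 0.0523 and 0.0600, and the lowest those of 5 ribosomal protein genes, Rps4x, Rpl13, Rpl23, Rps16 and Rps15a, between -0.0884 and -0.0770. Spp1 and Cd44 had a correlation of 0.0191 with each other in the epithelial gate and of -0.0818 over the 1146 mesenchymal-gate cells. These cells share 1 library and 1 depth, the counts are sparse, and the values are descriptions without a test.

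Other cells that make osteopontin were looked for by their markers. Of 10 immune markers Adgre1, Tyrobp and C1qa had 0 UMIs in all kept cells and Ptprc, Lyz2 and Cd3e 1 each. Their summed level was 14.0 CPM in the mesenchymal and 7.56 CPM in the epithelial gate, of which Cd68, a lysosomal protein gene, gave 13.0 and 6.43. Of 6 osteoblast markers Ibsp and Dmp1 had 0 UMIs and Sp7 and Bglap 1 each. Runx2, a transcription factor of bone, had 4574 UMIs and stood at 184 against 81.9 CPM, a ratio of 2.25 (2.07 to 2.44). Alpl had 24 UMIs and was under 10 CPM in both gates. It had 14 UMIs in the mesenchymal against 5 in the epithelial gate, a ratio of 24.8 (8.45 to 88.1). Endothelial markers summed to 0.498 CPM in the mesenchymal and 1.52 CPM in the epithelial gate, with Cdh5 and Cldn5 at 0.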

How the data were processed

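A droplet gene expression matrix of PC cells was used. It holds UMI counts that the authors deposited without normalization. Per the file headers, CellRanger 8.0.1 made it. The build mm10, Cell Ranger and Scanpy 1.8.2 are listed in the submitters' processing notes, while the annotation is not given in the sources used here. Since no header names the library, all barcodes count as 1 sample.

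From the counts, CPM were computed per set of cells from summed UMIs, with exact 95% Poisson intervals (Python 3.11.15, scipy 1.17.1). Shares were given exact (Clopper-Pearson) intervals and ratios of CPM exact binomial intervals. For co-detection ratios, the interval of the observed share was divided by the expected share. Calls used the unthinned counts of genes reaching 10 CPM in either set. Counts under 3 were set to 3 in the ratios behind calls, ranks and medians over genes. Ratios printed for single genes used the counts without this change. Scrublet in scanpy 1.11.5 called 1 of 14925 cells, too few for a working call, so doublets were kept. The calling step recovered most of its changed genes on counts simulated without variation between cells. That simulation does not cover genes whose UMIs lie in few cells.

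Named genes were the listed partners, the 10 largest called ratios in each direction between Spp1-high and Spp1-zero epithelial-gate cells, and the 5 highest and 5 lowest correlations there. High means at or above the 90th percentile of thinned Spp1 UMIs, and at least 3. Members and lists were chosen with earlier results of these data known. The mesenchymal-gate contrast and correlation, the split of low-marker cells, the 0.05 window, the 30-cell minimum and the equal-mean comparison were added after seeing the data, and of the added contrast only genes of the lists are named.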

Additional observations from a re-analysis of the deposited data

Results flagged for a closer look

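The 3191 barcodes that failed the filters, with a median of 696 UMIs and 12.1% mitochondrial UMIs, entered no comparison and still held UMIs of both genes above the 1.32 CPM that 3 UMIs give. Spp1 stood there at 88.7 CPM (76.9 to 102), from 202 UMIs, against 867 CPM in kept cells. Cd44 stood at 591 CPM (560.0 to 624), from 1346 UMIs, against 374 CPM in kept cells. Relative to kept cells, Spp1 was thus at 0.102 and Cd44 at 1.58 times the level.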

How the results depend on the processing

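Of 62 alternative values for 8 results, 49 kept within the interval of the reported value or, for counts, within 1.5 times, 13 moved and 0 reversed. Only the CPM ratios could be labelled as reversed, not the shares, the counts or the co-detection ratio. The co-detection ratio in the epithelial gate, 1.01, fell to 0.996 when thinned to 2500 UMIs and to 0.992 with another seed. Both values lie below 1 and within its interval. The Spp1 ratio between the gates, 20.1, moved to 18.6 with at least 1000 genes and 2000 UMIs, to 22.1 with gate limits of 0.9 and 0.1, to 21.9 with at least 3 marker UMIs, and to 21.6 when low-marker cells joined the gate whose markers led, an alternative added after seeing the data. The Spp1 share of cells moved to 28.1% under the stricter minimum, and to 19.96% and 36.3% when thinned to 1000 and 2500 UMIs. The Cd44 share moved to 30.2% and 57.2% at those depths. Genes called between the gates went from 2098 to 3828 at a ratio of 1.5 and to 855 at 50 CPM, and those called for Spp1-high epithelial-gate cells from 411 to 923 and to 111. The 75th percentile gave the same Spp1-high cells as the 90th, because the minimum of 3 UMIs set the limit. Its values, counted among the 49, could therefore not differ. No paired analysis was possible because there is 1 sample and no replicate, and for the same reason none could be left out. Depth limits the shares of cells with a UMI, and intervals cover counting error only.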
